A study of Mus musculus with 48 samples.

Results

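Club cells and the secretory cells of the mouse airway were followed through 9 transcripts, Scgb1a1, Scgb3a1, Scgb3a2, Cyp2f2, Bpifa1, Bpifb1, Reg3g, Muc5b and Muc5ac, which were chosen by gene symbol from the 47561 genes listed. RNA was sequenced from the whole lungs of 48 adult mice, with 3 mice in each of 16 groups. C3H mice were C3H/HeN and C57B mice were C57Bl/6, and both sexes of each strain were used (C3HM, C3HF, C57BM and C57BF). The substrain of the C57B mice is uncertain, since the text of the study names the N substrain and the series description the J substrain. Every mouse received a single intraperitoneal injection, either of saline or of aurothioglucose (ATG) at 25 mg/kg, a gold compound that inhibits thioredoxin reductase. All mice were then kept for 96 h in room air or in hyperoxia, which was oxygen above 95%. The general description of the series gives ATG to every mouse, so the saline groups rest on the sample labels. Each value below is the expression of 1 gene in 1 lung in FPKM, the sequenced fragments of a gene relative to its length and to the size of the library, and with sexes pooled each combination of strain, injection and air holds 6 mice.

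Club cells are the secretory cells of the bronchioles. They are known for the secretoglobins, small secreted proteins of the airway lining fluid, and for the cytochrome P450 enzymes by which they metabolize inhaled chemicals, and they can also divide and renew the airway epithelium. The larger airways hold secretory cells that release antimicrobial proteins and mucins, and mucin-producing goblet cells are scarce in an unchallenged mouse. In lung injury, the blood level of the Scgb1a1 protein is widely used as a marker of the airway epithelium. Since whole lungs were measured, fewer cells of a type cannot be told apart from less RNA per cell.

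Scgb1a1 encodes the club cell secretory protein (chr19:9083636-9087958), and Cyp2f2 encodes a P450 enzyme of club cells (chr7:27119909-27133660). Scgb3a1 and Scgb3a2 encode further secretoglobins, the first at chr11:49663610-49665118. Bpifa1 (chr2:154142880-154149219) and Bpifb1 (chr2:154190818-154220369) encode secreted proteins of the BPI fold family and lie beside each other on the same strand. Reg3g (chr6:78466269-78468872) encodes an antimicrobial lectin. Muc5ac (chr7:141788972-141819231) and Muc5b (chr7:141839070-141873084), which encode the main gel-forming mucins of the airway, are also neighbours. These positions are from GENCODE M21 on GRCm38, the assembly also called mm10. At most 0.416% of the 30-base sequences of any of the 9 transcripts also occurred in another gene, which was the value of Bpifb1.

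Promoter sequences are shown for Scgb3a1, Bpifa1 and Bpifb1, which moved together from mouse to mouse, and for Cyp2f2, whose response to hyperoxia differed between strains. Each runs 5′ to 3′ from 250 bases before to 50 bases after the RefSeq start of the gene on GRCm38.p6. All are on the plus strand (chr11:49663345-49663644, chr2:154142630-154142929, chr2:154190568-154190867 and chr7:27119705-27120004, in that order). For Scgb3a1 and Cyp2f2 the RefSeq start differs from the GENCODE start given above, and the distances below are from the RefSeq start. Capitals mark matches to the letters of known binding motifs on either strand. For FOX factors, TGTTTAC was searched, then with its second base changed the variant TATTTAC, and then with its sixth base changed the variant TGTTTGC. For NKX2 factors, CACTTGA was searched, and then with its last base changed the variant CACTTGC. For STAT factors, the motif was TTCNNNGAA, where N is any base. The motifs overlapped nowhere in these promoters.
Scgb3a1: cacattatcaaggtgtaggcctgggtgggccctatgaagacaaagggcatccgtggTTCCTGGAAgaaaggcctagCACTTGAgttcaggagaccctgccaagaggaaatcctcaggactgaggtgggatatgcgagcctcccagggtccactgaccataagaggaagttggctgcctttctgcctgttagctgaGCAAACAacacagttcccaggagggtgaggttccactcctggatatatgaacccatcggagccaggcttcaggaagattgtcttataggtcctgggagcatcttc
Bpifa1: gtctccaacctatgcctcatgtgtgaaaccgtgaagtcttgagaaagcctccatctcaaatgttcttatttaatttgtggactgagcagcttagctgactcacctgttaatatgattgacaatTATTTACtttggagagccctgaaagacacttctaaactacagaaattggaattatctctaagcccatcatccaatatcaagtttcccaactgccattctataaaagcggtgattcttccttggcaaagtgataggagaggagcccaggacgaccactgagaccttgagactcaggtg
Bpifb1: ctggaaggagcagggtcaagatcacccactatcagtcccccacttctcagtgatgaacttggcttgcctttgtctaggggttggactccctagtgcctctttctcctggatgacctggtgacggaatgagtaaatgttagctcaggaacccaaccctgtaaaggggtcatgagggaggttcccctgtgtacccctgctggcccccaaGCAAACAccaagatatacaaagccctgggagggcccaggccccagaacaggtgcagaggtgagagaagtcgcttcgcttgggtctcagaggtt
Cyp2f2: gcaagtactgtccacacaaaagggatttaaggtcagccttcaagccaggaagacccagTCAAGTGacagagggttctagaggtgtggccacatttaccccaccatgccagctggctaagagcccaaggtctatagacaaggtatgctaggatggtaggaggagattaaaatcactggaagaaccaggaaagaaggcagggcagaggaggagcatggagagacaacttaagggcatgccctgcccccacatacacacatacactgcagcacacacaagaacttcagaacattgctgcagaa
Among 27025 promoters of the same length, 11.0% held a FOX match, 6.50% an NKX2 match and 8.47% a STAT match. The Scgb3a1 promoter held all 3 kinds, with the FOX letters starting 55 bases before the gene. The Bpifa1 promoter held a FOX match 127 bases before the start and the Bpifb1 promoter held a FOX match 43 bases before it. A second RefSeq promoter of Bpifb1 (chr2:154200130-154200429), which is not shown, held a FOX match 110 bases and a STAT match 146 bases before its start. Cyp2f2 had an NKX2 match 192 bases before its start, and the Reg3g promoter, which is not shown, held none of the 3. A match is a likeness of letters and was not tested as a binding site.

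Scgb1a1 was the most abundant gene of the lung in 46 of 48 mice. It made up between 1.20% and 30.2% of the summed FPKM of a library, and this sum ranged from 510933 to 748290, with a median of 578563. FPKM is relative to gene length, so this is not the share of the sequenced fragments. The sum was not fixed either. Its median was 647522 in room air and 538369 in hyperoxia in C57B saline mice, and 630585 and 544727 in C3H saline mice. The scaling of the values was therefore varied among the alternatives tried. The depth of the libraries is unknown, and their relative depth, estimated from the steps between low values, was 0.774 to 1.25 times the median. In groups of 6, only the lowest, median and highest mouse are given.

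**Figure D1:**
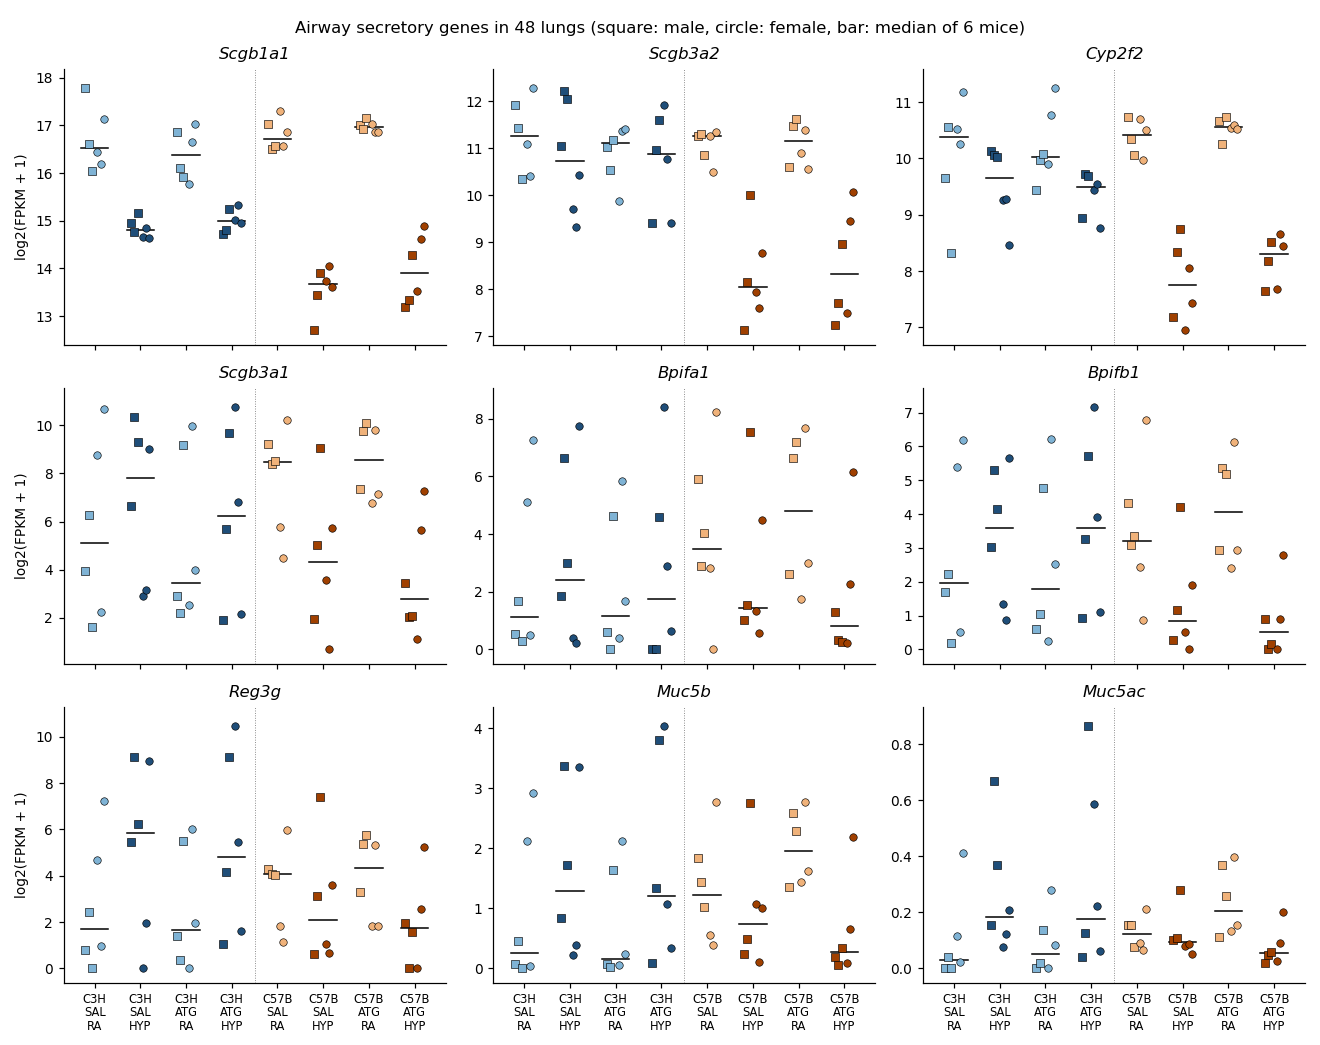
Expression of the 9 transcripts in each lung as log2(FPKM + 1), in panels by gene, against strain (C3H, C57B), injection (SAL, saline, or ATG) and air (RA, room air, or HYP, hyperoxia). Squares are males, circles are females and bars are medians of 6 mice; each panel has its own axis, which does not start at 0 for the abundant genes. Scgb1a1 separates hyperoxia from room air in both strains, whereas the genes in the middle row scatter over a wide range inside every group.

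At rest, that is in saline mice in room air, the secretoglobins and Cyp2f2 had overlapping levels in both strains. Scgb1a1 was at 68039.5, 94393 and 225989 FPKM (lowest, median and highest) in C3H and at 93521.5, 107785 and 162586 FPKM in C57B. Scgb3a2 had a median of 2473 FPKM in C3H and 2455 FPKM in C57B. Cyp2f2 had a median of 1346 FPKM in C3H and 1376 FPKM in C57B. The ranges of the strains overlapped for all 3 genes.

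The other members were lower and more variable at rest. Scgb3a1 ranged from 2.08 to 1617 FPKM in C3H, with a median of 45.8, and from 21.4 to 1189.9 FPKM in C57B, with a median of 352. Bpifa1 had medians of 1.33 FPKM in C3H and 10.9 FPKM in C57B. Bpifb1 had medians of 2.97 and 8.32 FPKM, and Reg3g of 2.68 and 15.7 FPKM. The mucin Muc5b had medians of 0.210 and 1.37 FPKM. Every range of these 5 genes overlapped between the strains. Muc5ac, the goblet cell mucin, never reached 1 FPKM. Its highest value in any of the 48 lungs was 0.821 FPKM, it was listed at 0 in 4 mice, and it did not pass the filter in any comparison, so 8 of the 9 genes were tested.

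No member passed the test for strain or sex at rest. With limma and adjustment over all genes, 0 of 8 differed between C3H and C57B, where 11.8% of 15546 genes did. The unadjusted p was under 0.05 for 0 of 8 members and for 4090 of the 15546 genes. The log2 fold changes of C3H over C57B ran from -2.19 (Scgb3a1, SE 1.39) to 0.16 (Scgb3a2, SE 0.33), and that of Scgb1a1 was -0.11 (SE 0.29, adjusted p = 0.847). Between the sexes, 0 of 8 differed, with log2 fold changes of -1.43 to 0.04, and 0.669% of genes did. Cyp2f2 was the member with the lowest adjusted p, at a male over female log2 fold change of -0.58 (SE 0.32, adjusted p = 0.290). Without the C3HM saline room air mouse 2, this difference was -0.84 and passed the threshold (adjusted p = 0.0426). The strain by sex interaction was called for 0 of 8 members and for 0% of genes, although 2538 of 15546 genes had an unadjusted p under 0.05. The interactions of the 8 members ran from -5.15 to 0.43, and that of Reg3g was -4.38 on the log2 scale (SE 2.04, adjusted p = 0.310). With standard errors of 0.29 to 1.39 on the log2 scale for the strain contrast, a difference of 2-fold in Scgb3a1 was not detectable with 6 mice per strain.

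Scgb1a1 fell in hyperoxia in every group compared. In saline mice, the C3H values were 25485, 28657 and 36833.8 FPKM in hyperoxia, against a lowest room air value of 68039.5. In C57B saline mice they were 6652, 13087 and 16976.7 FPKM, against a lowest room air value of 93521.5. No hyperoxia mouse reached any room air mouse of its strain. The log2 fold change over both strains was -2.55 (SE 0.18, limma, adjusted p = 5.18e-10), a 5.86-fold fall. In ATG mice, which share no animal with the saline mice, hyperoxia values were 26976 to 40951 FPKM in C3H and 9322 to 30416 FPKM in C57B, again with no overlap with room air (lowest 56208 and 118378 FPKM). The log2 fold change there was -2.19 (SE 0.19, adjusted p = 2.43e-09). As a share of the summed FPKM, the median went from 17.5% to 2.39% in C57B saline mice and from 15.9% to 5.33% in C3H saline mice. With quantile normalization Scgb1a1 was not called in either comparison (log2 -0.21 and -0.13), because that method gives the most abundant gene of every library the same value.

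Scgb3a2 and Cyp2f2 also fell in hyperoxia over both strains. In saline mice, the log2 fold change of Scgb3a2, a secretoglobin of the bronchiolar epithelium, was -1.63 (SE 0.29, adjusted p = 7.94e-05). That of Cyp2f2 was -1.57 (SE 0.22, adjusted p = 5.24e-06). In ATG mice, the changes were -1.42 (SE 0.34, adjusted p = 0.00116) and -1.63 (SE 0.16, adjusted p = 2.69e-08). In each injection group, 3 of 8 members fell and 0 rose. Of all genes tested, 28.3% fell and 31.8% rose in saline mice, and 26.0% fell and 35.8% rose in ATG mice, so a fall was common in these lungs. The median log2 fold change of the 8 members was -0.89 in saline mice and -1.34 in ATG mice, against 0.01 and 0.06 over all genes tested.

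The other 5 genes did not pass the test in either injection group. In saline mice the log2 fold changes were -1.06 (SE 1.08) for Scgb3a1, -0.25 (SE 1.12) for Bpifa1, -0.72 (SE 0.75) for Bpifb1, 0.91 (SE 0.99) for Reg3g and 0.16 (SE 0.44) for Muc5b. In ATG mice they were -1.93 (SE 1.16), -1.25 (SE 1.03), -1.13 (SE 0.79), 0.38 (SE 1.06) and -0.17 (SE 0.45), in the same order. Adjusted p-values were 0.158 to 0.866. The 95% interval of Bpifa1 in saline mice was -2.43 to 1.94 on the log2 scale, so large changes in either direction were within the error.

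**Figure D2:**
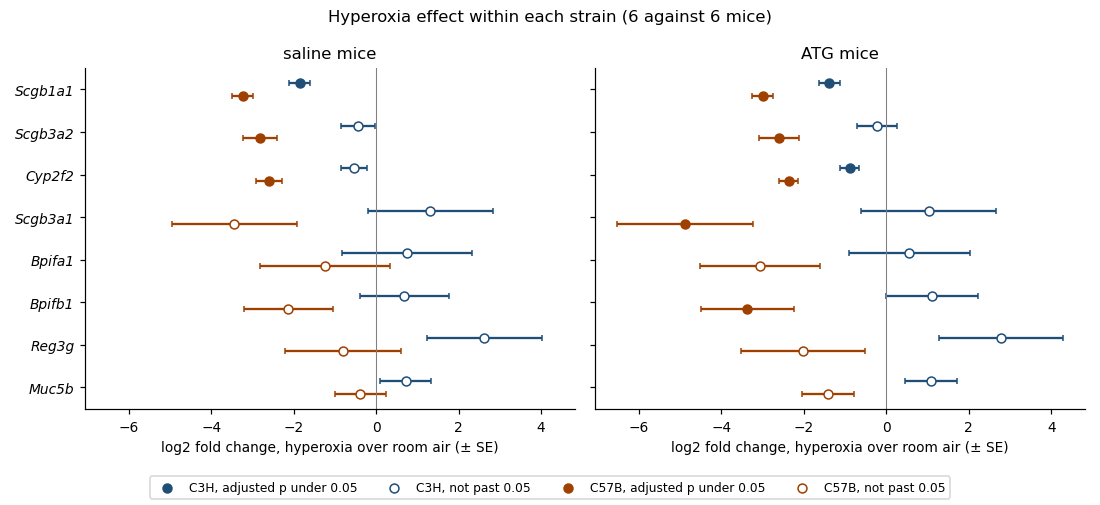
Log2 fold change of 8 transcripts, hyperoxia over room air, within C3H (blue) and C57B (brown), in saline mice (left) and ATG mice (right). Points are limma estimates from 6 against 6 mice, bars are ± SE and filled points have an adjusted p under 0.05; each C57B point lies to the left of the C3H point for the same gene.

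The fall was larger in C57B than in C3H. In C57B saline mice, Scgb1a1 fell 9.42-fold (log2 -3.24, SE 0.26, adjusted p = 4.05e-09), Scgb3a2 fell 7.06-fold (log2 -2.82, SE 0.42, adjusted p = 1.07e-05) and Cyp2f2 fell 6.06-fold (log2 -2.60, SE 0.32, adjusted p = 1.02e-06). These were 3 of 8 members, against 30.0% of all genes that fell. In C3H saline mice, Scgb1a1 fell 3.64-fold (log2 -1.86, SE 0.26, adjusted p = 1.60e-05). Scgb3a2 (log2 -0.45, SE 0.42, adjusted p = 0.424) and Cyp2f2 (log2 -0.54, SE 0.32, adjusted p = 0.189) did not pass the test there. Thus 1 of 8 members fell in C3H, where 12.5% of all genes did.

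The levels show the same order. In hyperoxia, Scgb3a2 was at 638, 1744 and 4806 FPKM in C3H saline mice and at 138, 264 and 1035 FPKM in C57B saline mice, against medians of 2473 and 2455 FPKM in room air. Of the C57B values in hyperoxia, none reached the lowest C57B value in room air, 1446 FPKM, whereas the C3H ranges overlapped. Cyp2f2 was at 353, 829 and 1122 FPKM in C3H and at 122, 219 and 428 FPKM in C57B. The lowest C57B value of Cyp2f2 in room air was 1008 FPKM, and the C3H ranges overlapped again. The sexes are pooled in these values. In C3HM saline mice the median of Scgb3a2 went from 2776 FPKM in room air to 4248 FPKM in hyperoxia. In C3HF saline mice it went from 2171 to 841 FPKM. Over both strains, the sex by hyperoxia interaction of Scgb3a2 did not pass the test (limma, 1.10, SE 0.59, adjusted p = 0.322).

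The difference between the strains passed the test itself. The strain by hyperoxia interaction, the hyperoxia log2 fold change of C3H minus that of C57B, was 1.37 for Scgb1a1 (SE 0.37, adjusted p = 0.0211), 2.37 for Scgb3a2 (SE 0.59, adjusted p = 0.0140) and 2.06 for Cyp2f2 (SE 0.45, adjusted p = 0.00669). These 3 of 8 members compare with 8.71% of 16321 genes called in this direction. The median of this interaction was 2.22 over the 8 members and 0.15 over all genes tested. Scgb3a1 had an interaction of 4.75 (SE 2.15, adjusted p = 0.153), and the other 4 had adjusted p-values of 0.229 to 0.600. The call of Scgb1a1 was lost when libraries were scaled by their median ratio (1.17, adjusted p = 0.0650) and with quantile normalization (0.41, adjusted p = 0.545). It was also lost with a filter at 0.1 FPKM (SE 0.62, adjusted p = 0.180) and with no filter (SE 1.12, adjusted p = 0.552), where the log2 fold change was still 1.37. Scgb3a2 and Cyp2f2 kept their calls in every setting and without any single mouse.

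The same interaction was computed in the 24 ATG mice, a comparison that was added after the data were seen. It was 1.62 for Scgb1a1 (SE 0.37, adjusted p = 0.00639), 2.38 for Scgb3a2 (SE 0.68, adjusted p = 0.0251) and 1.48 for Cyp2f2 (SE 0.32, adjusted p = 0.00465). Again 3 of 8 members were called, against 8.27% of 16206 genes. Bpifb1 (4.48, SE 1.59, adjusted p = 0.0669) and Muc5b (2.51, SE 0.90, adjusted p = 0.0686) missed the threshold, and with a pseudocount of 0.1 both passed it (adjusted p = 0.0400 and 0.0485). The call of Scgb3a2 was lost without the C57BM ATG hyperoxia mouse 22 (adjusted p = 0.0518), and that of Scgb1a1 with a filter at 0.1 FPKM (adjusted p = 0.120) or no filter (adjusted p = 0.481), both still at 1.62, and with quantile normalization (0.27, adjusted p = 0.550).

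In C57B mice given ATG, 5 of 8 members fell in hyperoxia, where 25.4% of all genes did. Besides Scgb1a1 (log2 -3.00, SE 0.26), Scgb3a2 (-2.61, SE 0.48) and Cyp2f2 (-2.37, SE 0.23), these were Scgb3a1 (-4.88, SE 1.64, adjusted p = 0.0156) and Bpifb1 (-3.37, SE 1.12, adjusted p = 0.0151). Scgb3a1 went from 107, 520 and 1094 FPKM in room air to 1.19, 6.60 and 155 FPKM in hyperoxia. Bpifb1, a secreted protein of the BPI fold family, went from 4.28, 20.9 and 68.4 FPKM to 0, 0.483 and 5.86 FPKM. The groups overlapped for both genes through a single hyperoxia mouse, C57BF mouse 48. In C3H mice given ATG, Scgb1a1 (-1.38, SE 0.26, adjusted p = 0.000185) and Cyp2f2 (-0.89, SE 0.23, adjusted p = 0.00301) fell, 2 of 8 members, against 17.5% of all genes. The C3H estimates of Scgb3a1, Bpifa1, Bpifb1, Reg3g and Muc5b were 0.56 to 2.78 with SE of 0.63 to 1.64, and none passed the test.

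Reg3g, the antimicrobial lectin, had the highest C3H estimates. In C3H saline mice it was at 0, 2.68 and 151 FPKM in room air and at 0, 58.7 and 567 FPKM in hyperoxia. In C3H ATG mice it was at 0, 2.27 and 63.2 FPKM in room air and at 1.10, 30.1 and 1421 FPKM in hyperoxia. The log2 fold changes were 2.62 (SE 1.40, adjusted p = 0.151) and 2.78 (SE 1.50, adjusted p = 0.137), so the difference was within the spread between mice. The ranges overlapped in both injection groups.

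Scgb1a1, Scgb3a2 and Cyp2f2 did not fall in parallel in every group. The log2 ratio of Scgb1a1 to Scgb3a2 within each library does not depend on how libraries are scaled, and it was chosen as a measure after the data were seen. In C3H saline mice it was 5.45 ± 0.40 (SD, n = 6) in room air and 4.04 ± 1.12 (SD, n = 6) in hyperoxia, a difference of -1.42 (exact permutation test, two-sided, p = 0.0152, adjusted p = 0.0404 over 8 tests). In C3H ATG mice the difference was -1.15 (exact permutation test, p = 0.0281, adjusted p = 0.0563). In C57B it was -0.41 in saline mice and -0.39 in ATG mice (exact permutation test, p = 0.335 and 0.175). Thus Scgb1a1 fell by more than Scgb3a2 beyond the spread in C3H saline mice with the sexes pooled. In hyperoxia, Scgb3a2 was at 2113 to 4806 FPKM in C3HM saline mice and at 638 to 1374 FPKM in C3HF saline mice. Scgb1a1 was at 27659 to 36834 FPKM and at 25485 to 29655 FPKM in these mice. Whether the ratio of Scgb1a1 to Scgb3a2 changed differently in the strains or the sexes was not tested.

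Cyp2f2 gave a related pattern, again with the sexes pooled. The log2 ratio of Scgb1a1 to Cyp2f2 changed by -1.32 in C3H saline mice (exact permutation test, p = 0.0108, adjusted p = 0.0404) and by -0.63 in C57B ATG mice (exact permutation test, p = 0.0108, adjusted p = 0.0404). In C3H ATG mice it changed by -0.49 and in C57B saline mice by -0.63 (exact permutation test, adjusted p = 0.147 and 0.0970). Without the C3HF ATG hyperoxia mouse 36 the first of these was -0.60, and without the C57BF saline hyperoxia mouse 43 the second was -0.83 (exact permutation test, unadjusted p = 0.00866 for each).

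**Figure D3:**
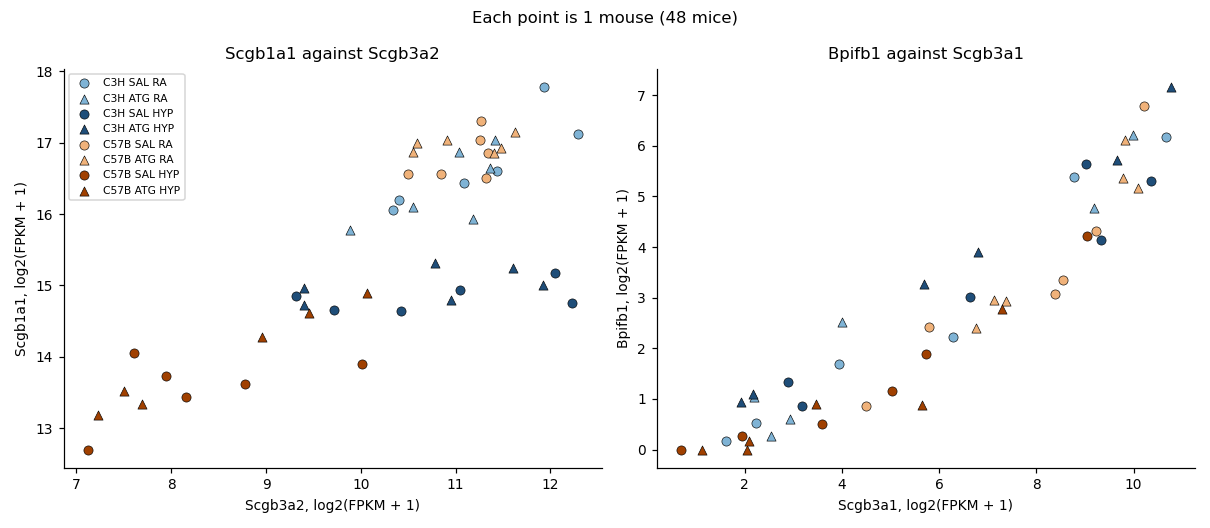
Scgb1a1 against Scgb3a2 (left) and Bpifb1 against Scgb3a1 (right), as log2(FPKM + 1), 1 point per mouse for 48 mice, colored by strain and air with circles for saline and triangles for ATG. On the left, the C3H hyperoxia mice lie below the room air mice at similar Scgb3a2 levels and the C57B hyperoxia mice lie at the lower left; on the right, all 48 mice follow a single band.

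No member passed the test for a difference between the sexes in the response to hyperoxia. The sex by hyperoxia interaction, males minus females in saline mice, was called for 0 of 8 members and for 0.0368% of genes. That background was unstable, since the 6 genes called became 306 with all 48 mice fitted and 2 to 1270 without 1 mouse. The interactions of the 8 members ran from -0.12 to 3.65. Cyp2f2 had the lowest p (1.42, SE 0.45, unadjusted p = 0.00505, adjusted p = 0.162). Its log2 fold change was -0.86 (SE 0.32) in males and -2.28 (SE 0.32) in females. The C3HM saline mice had 319, 800 and 1505 FPKM in room air and 1037, 1063 and 1122 FPKM in hyperoxia, and the C3HF saline mice had 1216, 1475 and 2316 FPKM in room air and 353, 611 and 620 FPKM in hyperoxia. The ranges thus overlapped in C3HM and did not in C3HF. Without the C3HM saline room air mouse 2 or the C57BM saline hyperoxia mouse 19, the interaction was 1.68 or 1.64 and passed the threshold (adjusted p = 0.0245 and 0.0336). Scgb1a1 showed an interaction of -0.12 (SE 0.37).

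No member passed the test for an effect of ATG. In room air, 0 of 8 members were called, and 0.0185% of genes were. The log2 fold changes of ATG over saline were -0.17 to 0.28, and that of Scgb1a1 was -0.07 (SE 0.19, 95% interval -0.45 to 0.31). In hyperoxia, 0 of 8 members and 5.47% of genes were called. The changes of the members ran from -0.78 to 0.29, and that of Scgb1a1 was 0.29 (SE 0.17, adjusted p = 0.339). The ATG by hyperoxia interaction over all 48 mice was called for 0 of 8 members and 2.77% of genes. It ran from -1.0 to 0.36 over the members and was 0.36 for Scgb1a1 (SE 0.26, adjusted p = 0.489). Across these 3 comparisons, 0 members had an unadjusted p under 0.05. In the same order, 1077 of 16228, 3472 of 15860 and 3190 of 16994 genes did. The interval of Scgb3a1 for the interaction, -4.12 to 2.39, shows that the variable genes left wide room for a change.

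Scgb3a1, Bpifa1, Bpifb1, Reg3g and Muc5b shared a large spread between mice of the same group, and they were set apart as 5 genes after their values were seen. Their SD around the group means, on the log2(FPKM + 1) scale, was 3.05 for Scgb3a1, 2.93 for Bpifa1, 2.11 for Bpifb1, 2.80 for Reg3g and 1.20 for Muc5b. Over 16994 genes the median was 0.26, and the 5 values were above those of 99.3% to 99.98% of genes. The SD was 0.46 for Scgb1a1, 0.86 for Scgb3a2 and 0.53 for Cyp2f2. As the highest over the lowest mouse of a group of 3, Scgb3a1 differed 82.3-fold in the median group and Muc5b 31.8-fold, whereas Scgb1a1 differed 1.56-fold and Cyp2f2 1.74-fold.

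The same mice were high for all 5 genes. In 13 of 16 groups, a single mouse had the highest value for each of the 5, and in the other 3 groups 2 mice shared the highest values. The C57BM saline hyperoxia mouse 21, for example, had 529 FPKM of Scgb3a1, 187 FPKM of Bpifa1, 17.6 FPKM of Bpifb1, 168 FPKM of Reg3g and 5.75 FPKM of Muc5b. Its group mate, mouse 19, had 2.82, 1.02, 0.211, 0.549 and 0.181 FPKM of the same genes. The C3HF ATG hyperoxia mouse 34 had 1736 FPKM of Scgb3a1, 338 FPKM of Bpifa1 and 1421 FPKM of Reg3g, which was the highest Reg3g value of the series.

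After subtraction of the group means, the 10 pairs among these 5 genes had Pearson's r of 0.911 to 0.956 and Spearman's rho of 0.902 to 0.954 over 48 mice. Each pair had the smallest p that 100000 permutations of mice within groups can give, 1e-05, and an adjusted p of 2e-05 over 28 pairs. Since the 5 genes were set apart after these values were seen, the p-values are no independent test of the set. Without the 2 mice farthest from the median of the first gene, r was 0.904 to 0.953. Among Scgb1a1, Scgb3a2 and Cyp2f2, r was 0.618 to 0.676 and rho was 0.549 to 0.632 (permutation p of at most 0.00229 for r and 0.00230 for rho). Scgb3a2 had r of 0.735 to 0.802 with the 5 genes, above its r of 0.676 with Scgb1a1 and 0.618 with Cyp2f2. With the same 5 genes, Scgb1a1 had r of 0.232 to 0.309 (permutation p of 0.0580 to 0.125). Cyp2f2 had r of 0.259 (Muc5b) to 0.425 (Scgb3a1) with them (permutation p of 0.0170 to 0.111). Relative depth had r of -0.016 to 0.124 with the 5 genes and -0.335 with Scgb1a1.

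**Figure D4:**
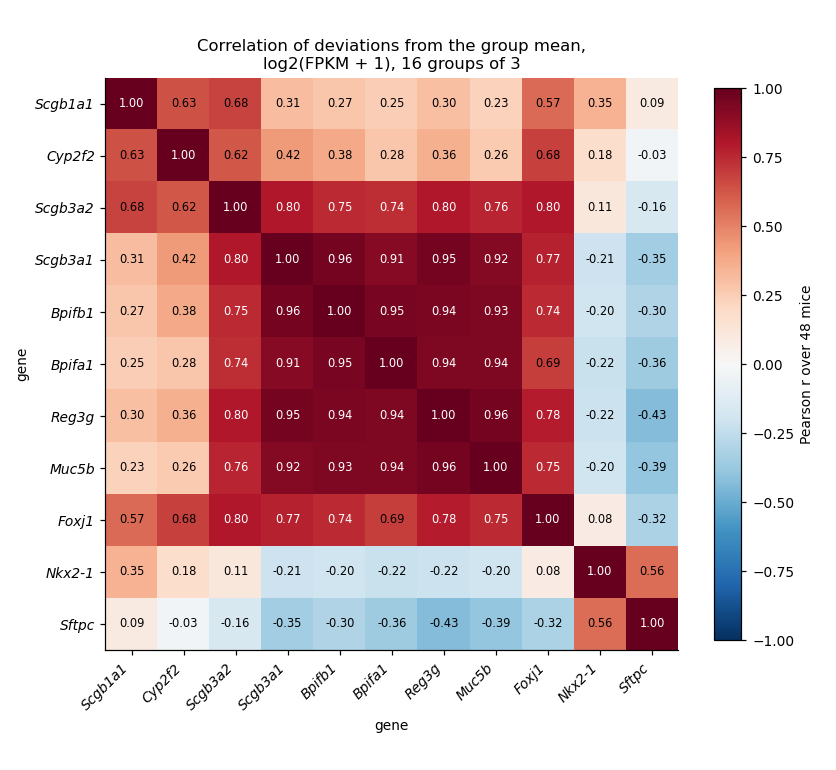
Pearson's r between genes over 48 mice, computed on log2(FPKM + 1) after subtracting the mean of each of the 16 groups. The block of Scgb3a1, Bpifb1, Bpifa1, Reg3g and Muc5b has r of 0.911 to 0.956; Foxj1 marks ciliated cells, Nkx2-1 the lung epithelium and Sftpc alveolar type 2 cells.

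The genes whose deviations were most like those of the members were named by the same measure, over 14072 genes and 48 mice. For Scgb1a1 they were Cldn10, a claudin of club cells (r = 0.899), Ldhb (0.889) and Wfdc2 (0.822). For Cyp2f2 they were Aldh1a7 (0.916), Cckar (0.869) and Gabrp (0.859). For Scgb3a2 they were Ccdc153, a gene of ciliated cells (0.894), Lypd2 (0.886) and Pcp4l1 (0.876). Tff2, a trefoil peptide secreted with mucus, was the nearest gene to each of the 5 variable members (0.890 to 0.942). The next in rank were Ltf, the antimicrobial protein lactoferrin, Vtcn1, Cyp2a5 and Sult1d1.

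Markers of other cells moved with the same mice to different degrees, and their part in the results was not tested. The ciliated cell gene Foxj1 had r of 0.692 to 0.784 with the 5 genes, 0.797 with Scgb3a2 and 0.570 with Scgb1a1. Sftpc, of alveolar type 2 cells, had r of -0.434 to -0.304 with the 5 genes. The basal cell keratin Krt5 was at 0 in all 24 C57B mice and at most 0.495 FPKM in C3H. Cartilage collagen Col2a1 was at most 0.178 FPKM in any mouse and the thyroid gene Tg at most 2.60 FPKM. Other markers of the same lists were higher. The gland marker Ltf, also among the nearest genes of Bpifa1, Bpifb1, Reg3g and Muc5b, reached 37.2 FPKM. Krt14 reached 3.69 FPKM and Aqp3 3.27 FPKM. Of 8 basal cell and cartilage markers, 2 passed the filter in saline mice and 0 were called for hyperoxia, where 9803 of 16321 genes were. Of 7 markers of glands and other secretory tissue, 2 passed the filter and 1 rose in saline mice, where 31.8% of all genes rose. It was Tg (0.68 on the log2 scale, SE 0.12).

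Other club cell genes fell with the members in part. Of 25 such genes, 24 were tested. In saline mice 10 fell and 3 rose with hyperoxia, with a median log2 fold change of -0.06 against 0.01 over all genes. Of all genes, 28.3% fell and 31.8% rose there. Those that changed most were Lypd2 (-2.94, SE 0.34), the esterase Pon1 (-1.41, SE 0.17), Cldn10 (-1.35, SE 0.15), Cckar (-1.32, SE 0.27) and the carbonyl reductase Cbr2 (-1.27, SE 0.16). In ATG mice 10 fell and 2 rose, against 26.0% and 35.8% of all genes. The same 5 genes led, from Lypd2 (-2.89, SE 0.44) to Cldn10 (-1.07, SE 0.17). By strain, 10 fell and 1 rose in C57B saline mice, and 4 fell and 4 rose in C3H saline mice. Of all 16321 genes, 4902 fell and 4161 rose in C57B, and 2039 fell and 4130 rose in C3H. In C3H the risers included Gsto1 (1.03, SE 0.20), a glutathione transferase, and Dcxr (0.83, SE 0.19). In saline mice the strain by hyperoxia interaction was called for 5 of 24, all higher in C3H, against 8.71% of all genes in this direction. They were Pon1 (1.89, SE 0.35), Cckar (1.88, SE 0.54), haptoglobin Hp (1.60, SE 0.23), Cldn10 (1.42, SE 0.30) and Aldh1a7 (1.42, SE 0.34). The ATG mice were less uniform, with 8 of 24 called higher in C3H and 2 lower, against 1340 and 816 of 16206 genes. There, 12 fell and 4 rose with hyperoxia in C57B, and 5 fell and 4 rose in C3H. Of all 16206 genes, 4121 fell and 4982 rose in C57B ATG mice, and 2832 fell and 4934 rose in C3H ATG mice.

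Of 16 genes of the mucous program, 10 were tested in either injection group. In saline mice over both strains, 1 fell and 1 rose, against 28.3% and 31.8% of all genes. Spdef, a transcription factor of goblet cells, fell by 0.67 on the log2 scale (SE 0.13), and Clca3a1 rose by 0.44 (SE 0.13). In ATG mice 2 fell and 3 rose, against 26.0% and 35.8% of all genes. Among them were Agr2 (-1.02, SE 0.30), a disulfide isomerase of mucus cells, and Pigr (1.03, SE 0.26), the receptor that carries immunoglobulin A across the epithelium. Pigr rose in C3H saline mice (1.80, SE 0.39), and its strain by hyperoxia interaction was 2.32 (SE 0.55) in saline mice and 3.05 (SE 0.52) in ATG mice. Within C57B mice, 4 fell and 1 rose in saline mice, and 5 fell and 0 rose in ATG mice. Tff2 fell in both (-2.66, SE 0.79 and -3.09, SE 0.86). Within C3H mice, 1 fell and 1 rose in saline mice, and 0 fell and 3 rose in ATG mice. Of all genes, 30.0% fell in C57B saline mice and 25.4% in C57B ATG mice. In C3H, 12.5% fell in saline mice and 17.5% in ATG mice, while 4130 of 16321 and 4934 of 16206 genes rose.

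Of 14 transcription factors of the airway epithelium, 8 fell and 3 rose in saline mice, against 28.3% and 31.8% of all genes. Nkx2-1, which is needed for secretoglobin expression, fell by 1.20 on the log2 scale (SE 0.15). After subtraction of the group means, its r was 0.345 with Scgb1a1, 0.114 with Scgb3a2, -0.210 with Scgb3a1 and 0.557 with Sftpc. Whether its fall takes part in that of the secretoglobins was not tested. Nfib fell by 0.74 (SE 0.10) and Ehf by 0.74 (SE 0.14), while Cebpd rose by 1.77 (SE 0.17) and Cebpb by 0.90 (SE 0.16). In ATG mice 5 fell and 3 rose, against 26.0% and 35.8% of all genes. The interaction with strain was called for 0 of 14 in saline mice and for 4 of 14 in ATG mice, among them Sox2 (1.33, SE 0.37). It was called as higher in C3H for 8.71% and 8.27% of all genes.

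Markers of other epithelial cells fell in the same lungs. Of all genes, 28.3% fell and 31.8% rose in saline mice over both strains, 30.0% fell in C57B and 12.5% fell in C3H. The strain by hyperoxia interaction was called as higher in C3H for 8.71%. Of 14 ciliated cell markers, 11 fell and 0 rose in saline mice, with a median log2 fold change of -0.77. All 14 fell in C57B saline mice and 3 fell in C3H saline mice, and the interaction was called for 3 of 14, Ccdc153 (2.15, SE 0.50), Sntn (1.93, SE 0.49) and Tppp3 (1.31, SE 0.24). Their summed FPKM ranged from 708 to 1120.1 in C57B saline room air and from 92.4 to 300.5 in hyperoxia, and from 590 to 1062 and from 217 to 497 in C3H. Tppp3, with up to 698 FPKM, weighs most in these sums, and the next highest marker, Dynlrb2, reached 126 FPKM. In C3H saline mice Tppp3 fell by 1.71 on the log2 scale (SE 0.17), while the median of the 14 markers was -0.21. Foxj1, the factor that defines ciliated cells, was among the 14 that fell in C57B saline mice. Its median there was 38.5 FPKM in room air and 19.5 FPKM in hyperoxia. In C3H saline mice the medians were 23.8 and 27.6 FPKM, and Foxj1 was not among the 3 that fell. The ranges of Foxj1 overlapped between room air and hyperoxia in both strains. Of 8 alveolar type 2 markers, 7 fell and 1 rose in saline mice, and Sftpc went from a median of 32771 to 5260 FPKM in C57B and from 25256 to 8130 FPKM in C3H. Of 7 alveolar type 1 markers tested, 5 fell and 0 rose. Of 9 leukocyte and blood markers tested, 5 fell and 3 rose. Whether these changes take part in the fall of the club cell genes was not tested.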

How the data were processed

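Lung RNA of 48 mice was sequenced. The deposited table holds 1 FPKM value per gene and mouse, which the authors obtained with gSNAP alignment to mm10 followed by Cufflinks. Handling of reads with several matches is not given in the sources used here. The labels name a directional kit and an earlier instrument than the methods do. FPKM divides by length and library size, so an abundant gene lowers all others. No counts were used, depth is unknown, and precision comes from the spread between mice.

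Groups were taken from the sample labels. Log2(FPKM + 1) was fitted by group means with limma 3.58.1 in R 4.3.3 (eBayes with a trend) for genes that reached 1 FPKM in 3 or more of the mice in the fit, adjusted by the Benjamini-Hochberg method over all genes, with a threshold of 0.05. Within-library ratios were compared by exact permutation (scipy 1.17.1). The fits were tested on simulated data. Akap5, with 7 failed estimates, was left out. Every member entered every comparison, where Muc5ac did not pass the filter, and values are given singly or as a range. Of other lists the genes named are among the up to 5 called with the largest change. Nearest genes are the 3 non-members with the highest r. The members and lists were chosen with earlier results of these data known. Replicates are separate mice per the labels. Alternatives were a pseudocount of 0.1, filters at 0.1 FPKM or none, quantile normalization, median ratio scaling, scaling without Scgb1a1, eBayes without trend, a fit of all 48 mice and leaving out each mouse.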

Additional observations from a re-analysis of the deposited data

Results flagged for a closer look

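For each gene, the 6 mice of each strain, injection and air were examined for a highest or lowest mouse far from the others by Dixon's ratio at its 95% critical value. Of 72 groups, 22 held such a mouse, always the highest. Chance gives about 1 in 20 groups where values are normally distributed. These are FPKM with a long upper tail, so the 22 cannot be read against that share, and on the log2(FPKM + 1) scale, tried after the data were seen, 6 of 72 groups held such a mouse. The genes are not independent, since 6 mice account for all 22.

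The C57BM saline hyperoxia mouse 21 stood above its group in 7 genes, at 529 FPKM of Scgb3a1, 1035 FPKM of Scgb3a2, 187 FPKM of Bpifa1, 17.6 FPKM of Bpifb1, 168 FPKM of Reg3g, 5.75 FPKM of Muc5b and 0.213 FPKM of Muc5ac. The C57BF ATG hyperoxia mouse 48 stood apart in 5 genes, at 155 FPKM of Scgb3a1, 70.8 FPKM of Bpifa1, 5.86 FPKM of Bpifb1, 37.4 FPKM of Reg3g and 3.53 FPKM of Muc5b. The C3HF saline room air mouse 27 did so in 4 genes, at 1617 FPKM of Scgb3a1, 152 FPKM of Bpifa1, 151 FPKM of Reg3g and 0.331 FPKM of Muc5ac. The C57BF saline room air mouse 39 did so in 3 genes, at 298 FPKM of Bpifa1, 109 FPKM of Bpifb1 and 61.3 FPKM of Reg3g. The C3HF ATG hyperoxia mouse 34 had 338 FPKM of Bpifa1 and 143 FPKM of Bpifb1. The C3HF ATG room air mouse 29 had 73.3 FPKM of Bpifb1.

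The response to hyperoxia differed between strains by limma's interaction test in 3 members. In saline mice, C3H minus C57B was 1.37 on the log2 scale for Scgb1a1, 2.37 for Scgb3a2 and 2.06 for Cyp2f2. In ATG mice it was 1.62 for Scgb1a1, 2.38 for Scgb3a2 and 1.48 for Cyp2f2. The Scgb1a1 calls were lost with quantile normalization and with both other filters, and in saline mice also with median ratio scaling. The Scgb3a2 call in ATG mice was lost without mouse 22 (limma, adjusted p = 0.0518).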

How the results depend on the processing

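Apart from leaving out mice, 311 log2 fold changes of members were recomputed. Of these, 299 stayed on their side of the threshold in the same direction. Quantile normalization took Scgb1a1 out of the hyperoxia calls, which gives the top-ranked gene of every library the same value. The strain difference of Scgb1a1 was called with scaling without Scgb1a1 and lost with quantile normalization (0.41), with both other filters and with median ratio scaling (1.17). With the other filters the log2 fold change stayed at 1.37 while its SE went from 0.37 to 0.62 and 1.12, and the cause was not tested. In ATG mice it was lost with quantile normalization (0.27) and with both other filters, at 1.62. Its strain difference at rest turned to 0.0069 with median ratio scaling. In ATG mice, 5 members were called for strain by hyperoxia with a pseudocount of 0.1. Scaling moved the share of higher calls for strain by hyperoxia in saline mice from 75.6% to 45.8%, in ATG mice from 62.2% to 46.3%, and the median of all genes in saline mice from 0.15 to 0.00.

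Leaving out each mouse in turn gave 3 members called for hyperoxia in either injection group and for strain by hyperoxia in saline mice. It gave 2 to 6 for strain by hyperoxia in ATG mice, with 6 without mouse 29 or 36 and 5 without mouse 6 or 10, and 0 to 1 for sex at rest and for sex by hyperoxia. Log2 fold changes that turned their sign were not called. They were Bpifa1 (-0.86 to 0.32) and Muc5b (-0.092 to 0.35) for hyperoxia in saline mice, Reg3g (-0.20 to 0.91) and Muc5b (-0.45 to 0.038) in ATG mice, and Scgb1a1 for ATG in room air (-0.17 to 0.050) and for strain at rest (-0.35 to 0.085). The ratio of Scgb1a1 to Scgb3a2 in C3H ATG mice ran from -1.40 to -0.91. That of Scgb1a1 to Cyp2f2 ran from -0.60 to -0.24 in C3H ATG mice and from -0.83 to -0.49 in C57B saline mice.

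The count over all genes for sex at rest went from 104 to 1915 with all 48 mice fitted and to between 20 and 3640 without 1 mouse. That for sex by hyperoxia went from 6 to 306 with all 48 mice and to between 2 and 1270 without 1 mouse. For strain by sex the count went from 0 to 748 with all 48 mice and to between 0 and 2741 without 1 mouse. No paired analysis was possible because each mouse has a number of its own and belongs to 1 group.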
